A study of Homo sapiens with 12 samples.

Results

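Of 15842 genes expressed in senescent WI-38 fibroblasts, 122 genes (0.77%) moved in opposite directions when either NTRK2 or BDNF was silenced. A total of 93 of them were lower with siNTRK2 and higher with siBDNF than with the control siRNA, led by the cytokine gene IL1A, which reached the minimum level only with siBDNF, and 29 were higher with siNTRK2 and lower with siBDNF. The genes were selected on the levels of the same libraries, as CPM (a count divided by the total of its library and multiplied by 1000000). A gene had to reach a mean of 1 CPM in the senescent cells with siCtrl or siBDNF. All 3 siNTRK2 libraries had to lie on one side of the 3 senescent siCtrl libraries, all 3 siBDNF libraries on the other, and both log2 ratios of group means had to reach 0.25 in absolute value. The levels of the selected genes in the senescent groups are therefore a description. Where their edgeR calls with the siRNAs are counted in gene lists or drawn, the direction was fixed by the selection and nothing is read from them, whereas the comparison of senescent with proliferating cells was not part of the selection and was tested.

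The 12 libraries came from WI-38, a line of human diploid lung fibroblasts, in 4 groups of 3. All were labelled with a population doubling level of 15 to 25. Cells called siCtrl_Prolif received the control siRNA and then the solvent DMSO for 8 days and kept proliferating. The groups siCtrl_Sen, siNTRK2_Sen and siBDNF_Sen were transfected with the control siRNA, siNTRK2 or siBDNF, and etoposide, a topoisomerase inhibitor that breaks DNA, was given at 50 µM for 8 days to bring about senescence. All siRNAs were used at 25 nM, each target was silenced with 1 commercial pool of several siRNAs, and the labels do not tie single libraries to separate cultures, although the methods describe experiments in general as independent repeats, so that p-values measure the spread between these libraries.

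Senescent cells stop dividing but remain active and secrete a mixture of cytokines, chemokines, growth factors and proteases, the senescence-associated secretory phenotype (SASP). IL-1α, the product of IL1A, is known as an upstream member of this secretome, since its receptor activates NF-kB and AP-1 and thereby raises the transcription of CXCL8, IL6 and matrix metalloproteinase genes. TrkB, the protein encoded by NTRK2, is a receptor tyrosine kinase, and brain-derived neurotrophic factor (BDNF) is its ligand. Each gene was silenced in cells brought to senescence, and transcripts that moved oppositely are those whose mRNA levels changed in different directions with siNTRK2 and siBDNF. The paper reports that fewer senescent cells survived with either siRNA. Whether the changes came from the loss of receptor or ligand, from other effects of the siRNA pools or from which cells survived was not tested.

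Promoters of 10 of the genes lower with siNTRK2 are shown here, because these genes are described below. They are IL1A, IL1B, CXCL8, CXCL1, SERPINB2, PTGS2 and JUNB, which are in the gene lists, and TFPI2, ARRDC4 and CDCP1, which were chosen after their values were seen. Each line gives the 150 bases directly before the most upstream annotated start of the gene, in RefSeq coordinates of GRCh38.p14, and capitals mark matches to AP-1 (TGANTCA), the TATA box (TATAAA), C/EBP (TTGCNNAA) or the NF-kB consensus on either strand. The windows are chr2:112784494-112784643 on the minus strand for IL1A, chr4:73740419-73740568 on the plus strand for CXCL8, chr4:73869243-73869392 on the plus strand for CXCL1, chr18:63887555-63887704 on the plus strand for SERPINB2, chr1:186680424-186680573 on the minus strand for PTGS2, chr7:93890754-93890903 on the minus strand for TFPI2, chr15:97960553-97960702 on the plus strand for ARRDC4, chr2:112836780-112836929 on the minus strand for IL1B, chr19:12791336-12791485 on the plus strand for JUNB and chr3:45146379-45146528 on the minus strand for CDCP1.
IL1A: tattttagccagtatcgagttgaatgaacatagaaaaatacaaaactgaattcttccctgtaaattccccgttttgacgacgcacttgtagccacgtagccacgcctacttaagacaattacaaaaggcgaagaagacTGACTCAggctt
IL1B: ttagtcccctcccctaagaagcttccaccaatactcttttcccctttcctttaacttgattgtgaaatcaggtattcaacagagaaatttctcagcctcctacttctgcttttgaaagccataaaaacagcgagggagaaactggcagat
CXCL8: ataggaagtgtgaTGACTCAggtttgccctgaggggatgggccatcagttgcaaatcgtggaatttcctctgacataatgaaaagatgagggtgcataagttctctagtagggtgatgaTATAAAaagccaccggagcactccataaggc
CXCL1: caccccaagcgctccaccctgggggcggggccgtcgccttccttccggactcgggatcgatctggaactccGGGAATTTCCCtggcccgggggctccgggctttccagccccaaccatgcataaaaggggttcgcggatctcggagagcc
SERPINB2: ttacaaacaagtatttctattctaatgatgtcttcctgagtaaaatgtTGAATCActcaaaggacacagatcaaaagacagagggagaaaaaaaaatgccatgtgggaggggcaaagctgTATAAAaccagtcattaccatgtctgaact
PTGS2: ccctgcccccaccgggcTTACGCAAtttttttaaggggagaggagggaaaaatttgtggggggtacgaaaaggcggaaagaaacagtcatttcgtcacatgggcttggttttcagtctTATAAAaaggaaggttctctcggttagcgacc
TFPI2: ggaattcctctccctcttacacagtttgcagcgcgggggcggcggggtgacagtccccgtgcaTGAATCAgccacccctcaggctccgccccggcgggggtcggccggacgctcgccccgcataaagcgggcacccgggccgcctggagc
ARRDC4: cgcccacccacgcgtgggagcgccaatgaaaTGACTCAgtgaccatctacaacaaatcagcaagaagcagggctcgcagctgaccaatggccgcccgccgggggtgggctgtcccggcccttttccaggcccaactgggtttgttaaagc
JUNB: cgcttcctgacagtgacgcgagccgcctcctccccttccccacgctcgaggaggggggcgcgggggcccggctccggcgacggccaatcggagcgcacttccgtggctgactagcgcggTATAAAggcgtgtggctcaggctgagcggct
CDCP1: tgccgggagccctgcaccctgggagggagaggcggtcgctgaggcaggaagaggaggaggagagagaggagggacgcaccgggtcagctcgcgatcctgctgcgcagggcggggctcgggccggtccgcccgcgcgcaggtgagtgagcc

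An AP-1 match lay in 5 of these 10 windows, namely those of IL1A, CXCL8, SERPINB2, TFPI2 and ARRDC4, and TATAAA stood in CXCL8, SERPINB2, PTGS2 and JUNB. The windows of IL1B and CDCP1 held none of these letters. CXCL1 held the NF-kB consensus, read on both strands over the same bases, and PTGS2 a C/EBP match. Only full matches to the consensus letters were marked, so the other windows, that of CXCL8 included, may hold sites that differ from them. Promoter sequence was at hand for 57 of the 93 genes lower with siNTRK2 and for 19 of the 29 higher with it. Over the full 250 bases before any listed start, AP-1 matches were found in 11 of the 57 (19.3%) and in 1 of the 19 (5.26%), KAZN, named for this match, beside 8.06% of the 27303 genes of the table. The other AP-1 matches among the genes lower with siNTRK2 were those of CD68, CPA4, IL1RL1, LINC-PINT, LINC00973 and PRSS3, the last 2 also named for the match. TATAAA was present in 28.1% and 15.8% of the respective classes and 13.05% of the table, the E-box CACGTG in 14.04%, 15.8% and 7.73%, and the NF-kB consensus in 15.8%, 26.3% and 11.8%. C/EBP matches were found in 12.3%, 21.1% and 11.03%, and the cyclic AMP response element TGACGTCA in 1 of 57 genes, in 0 of 19 and in 2.03% of the table. The 27303 genes of the table were not limited to expressed genes, whereas the selected genes had to reach the CPM minimum. These letters are a description of the windows and were not tested.

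Library totals ran from 31567912 counts, in a siBDNF library, to 72328151, so that the detection floor of 3 counts corresponded to between 0.0415 and 0.0950 CPM, counting error alone being covered. The silenced receptor gene NTRK2 was close to this floor, since 7, 15 and 10 counts were found in siCtrl_Sen, 10, 23 and 29 in siBDNF_Sen and 0 in each siNTRK2_Sen library, which allows up to 0.0487 to 0.0607 CPM. BDNF mRNA was at 159, 158 and 167 CPM in siCtrl_Sen, 206, 207 and 205 CPM in siNTRK2_Sen and 49.9, 50.7 and 45.3 CPM in siBDNF_Sen. The fibroblast genes COL1A1 (8567 to 14335 CPM) and VIM (4198 to 5098 CPM) were abundant in every library. Senescent siCtrl cells had 2794 to 2920 CPM of CDKN1A, the cell cycle inhibitor p21, against 887 to 920.1 CPM in proliferating cells, and 0.801 to 1.62 CPM of the proliferation marker MKI67 against 15.5 to 16.4 CPM. CDKN1A was 1962 to 2096 CPM in siNTRK2_Sen and 2857 to 2927 CPM in siBDNF_Sen. MKI67 was 3.87 to 4.39 CPM in siNTRK2_Sen and 2.03 to 2.90 CPM in siBDNF_Sen. Transcripts of the mitochondrial genome made up 3.33% to 3.65% of counts in siCtrl_Sen, 2.50% to 2.85% in siNTRK2_Sen and 1.78% to 2.38% in siBDNF_Sen. The part of these differences in the results below was not tested, and in bulk RNA fewer cells of a kind and less RNA per cell cannot be told apart.

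The selected genes stood in the upper left and lower right corners of the plot of both ratios. In the class lower with siNTRK2 the median log2 ratio was -0.45 with siNTRK2 and 0.43 with siBDNF, and in the reverse class 0.37 and -0.34. Only 16 of the 122 genes had both ratios at 0.5 or more in absolute value, 14 of them in the class lower with siNTRK2 and CYTL1 and ADAMTS8 in the other, and IL1A alone had both at 1 or more. Before the limit on the ratio, 566 genes had libraries that did not overlap in opposite ways, 393 lower and 173 higher with siNTRK2, so most of such genes differed by less than the limit. TRNP1, with ratios of -0.35 and 0.2506, and CD4, with 0.2509 and -0.30, were nearest inside the limit, and ABTB2 (-0.2499 and 0.48) and KLHL15 (-0.30 and 0.2491) nearest outside it. Summed over the 93 genes, 2926 to 2935 CPM were found in siCtrl_Sen, 2078 to 2144 CPM in siNTRK2_Sen and 3984 to 4079 CPM in siBDNF_Sen. The division into classes depended on how libraries were scaled. With the TMM scaling of edgeR in place of library totals, 79 genes fell in the first class and 40 in the second (66.4% in the first, against 76.2%), with DESeq2 size factors 79 and 41 (65.8%), and 98 and 97 of the 122 genes remained, respectively. Without siCtrl_Sen replicate 3 the second class held 45 genes, 24 of the 29 among them.

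**Figure D1:**
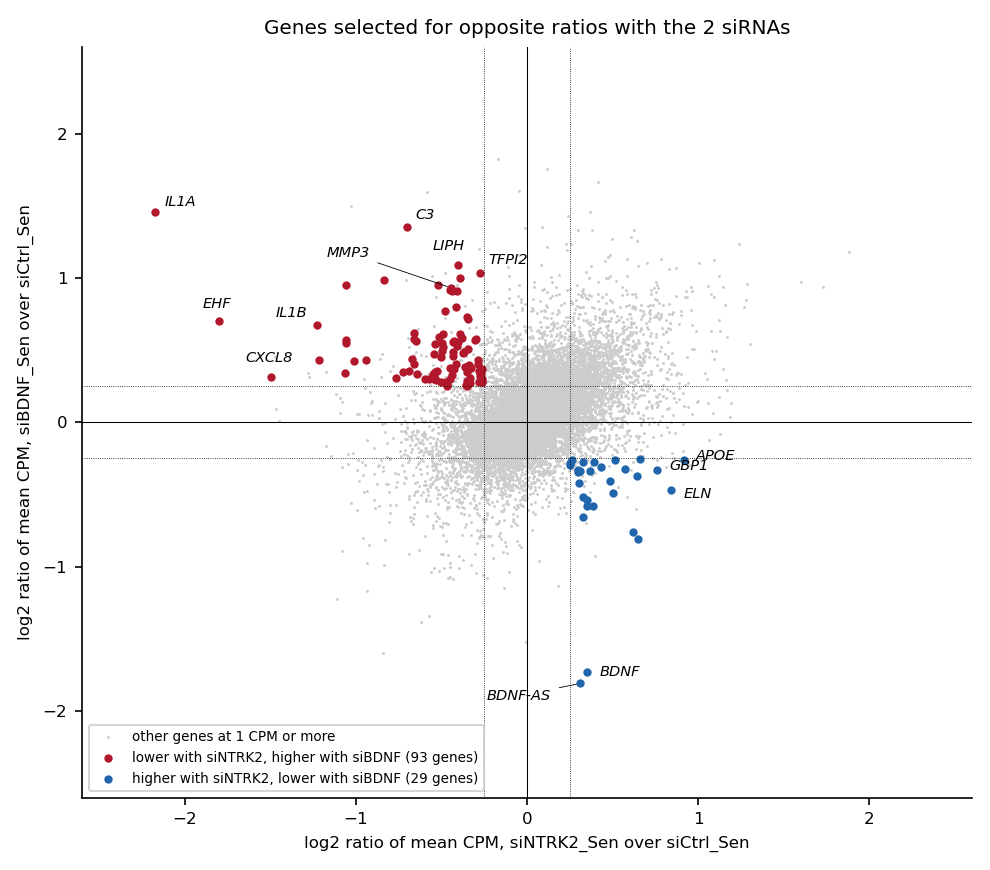
Log2 ratio of mean CPM of siNTRK2_Sen (horizontal) and siBDNF_Sen (vertical) over siCtrl_Sen for the genes at 1 CPM or more; dotted lines mark 0.25 and -0.25. Red points are the 93 genes lower with siNTRK2 and higher with siBDNF, with IL1A farthest at -2.18 and 1.46, and blue points the 29 genes of the reverse class, in which BDNF and its antisense transcript BDNF-AS lie lowest.

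IL1A gave the widest separation of all selected genes. IL1A, which encodes the alarmin cytokine IL-1α, was at 0.0705, 0.0968 and 0 CPM in the proliferating libraries and 0.668, 0.399 and 0.716 CPM in siCtrl_Sen. With siNTRK2 the IL1A level was 0.0812, 0.182 and 0.131 CPM and with siBDNF 1.52, 1.64 and 1.73 CPM. The 3 siBDNF libraries lay above all others, and the siNTRK2 libraries lay below siCtrl_Sen and overlapped the proliferating ones. IL1A met the CPM minimum only through siBDNF_Sen, with a mean of 1.63 CPM against 0.594 CPM in siCtrl_Sen, and the same held for MPZL3, LINC00520 and EGR3, 4 of the 93 genes in all. Its levels rested on few reads, with 38, 23 and 42 counts in siCtrl_Sen, 5, 9 and 7 in siNTRK2_Sen and 48, 107 and 116 in siBDNF_Sen. The log2 ratios were -2.18 with siNTRK2 and 1.46 with siBDNF. IL1B, the gene of the secreted cytokine IL-1β, lies next to IL1A on chromosome 2 and was at 0.476, 0.387 and 0.696 CPM in the proliferating libraries and 2.39, 3.54 and 3.02 CPM in siCtrl_Sen. In siNTRK2_Sen IL1B was at 1.04, 1.62 and 1.16 CPM and in siBDNF_Sen at 3.90, 5.23 and 5.15 CPM. Its siNTRK2 libraries stood above the proliferating ones and below the other senescent groups, with ratios of -1.23 and 0.67. IL1RL1 encodes ST2, the receptor of interleukin-33, and was at 1.69, 1.79 and 1.98 CPM in siCtrl_Sen, 1.40, 1.25 and 1.15 CPM in siNTRK2_Sen and 3.74, 3.34 and 3.47 CPM in siBDNF_Sen, with a larger ratio for siBDNF (0.95) than for siNTRK2 (-0.52). In siCtrl cells these 3 genes rose with senescence, by a log2 fold change of 3.14 ± 0.50 (SE) for IL1A, 2.54 ± 0.23 (SE) for IL1B and 3.57 ± 0.28 (SE) for IL1RL1 (adjusted p from the edgeR quasi-likelihood test = 6.81e-06, 8.82e-10 and 4.02e-11).

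Among 17 tested genes of the interleukin-1 system, which includes the receptors, the IRAK kinases and the adaptor MYD88, siNTRK2 lowered 5 and raised 0, and siBDNF raised 5 and lowered 1 (edgeR, adjusted p under 0.05; over all 21518 genes tested, siNTRK2 raised 11.1% and lowered 10.0%, and siBDNF raised 10.3% and lowered 10.2%). The medians were -0.11 and 0.21, against -0.0024 and 0.0039 over all genes. Both contrasts use the same siCtrl_Sen libraries, and these counts, like those of the lists below, include the selected genes, whose direction was fixed by the selection. IRAK2, a kinase of the receptor complex that was not selected, was at -0.22 ± 0.08 after siNTRK2 and 0.35 ± 0.08 after siBDNF on the log2 scale (SE; adjusted p from edgeR = 0.0453 and 0.00149). IL1R1, the signalling receptor, was at 0.10 ± 0.05 and 0.27 ± 0.05 (adjusted p from edgeR = 0.163 and 2.20e-04). IRAK3, an inhibitor of this signal, was lowered by siNTRK2, at -1.01 ± 0.21 (adjusted p from edgeR = 8.17e-04) and was at -0.01 ± 0.19 with siBDNF (adjusted p = 0.983).

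Both selected chemokine genes lie in one cluster on chromosome 4. CXCL8, the neutrophil attractant interleukin-8, was at 13.8, 13.1 and 11.8 CPM in the proliferating libraries and 34.8, 38.97 and 38.5 CPM in siCtrl_Sen. The siNTRK2_Sen libraries held 11.9, 13.5 and 14.3 CPM of CXCL8 and those of siBDNF_Sen 47.3, 44.9 and 47.3 CPM. In siNTRK2_Sen it overlapped the proliferating cells, while the siBDNF libraries lay above siCtrl_Sen by a smaller step. The ratios were -1.50 and 0.31. CXCL1, another ligand of the receptor CXCR2, was at 1.81, 2.23 and 1.85 CPM in the proliferating libraries and 2.41, 2.05 and 2.93 CPM in siCtrl_Sen. With siNTRK2 the CXCL1 level was 1.15, 0.992 and 1.03 CPM and with siBDNF 3.42, 3.42 and 3.13 CPM. Its siNTRK2 libraries lay below even the proliferating ones, and its proliferating and senescent siCtrl libraries overlapped. Of 17 tested chemokines, siNTRK2 lowered 9 and raised 0 with a median of -0.92, whereas siBDNF raised 1, CXCL8, and lowered 1, CCL2, with a median of 0.07. CXCL5 (-1.48 ± 0.29, SE) and CCL20 (-2.47 ± 0.56) were lowered by siNTRK2 (adjusted p from edgeR = 5.02e-04 and 0.00216) and were at 0.04 ± 0.25 and 0.06 ± 0.46 with siBDNF (adjusted p = 0.94 and 0.951). CXCL5 was low, at 1.83, 1.80 and 1.08 CPM in the proliferating libraries, 1.26, 0.833 and 1.38 CPM in siCtrl_Sen and 0.373, 0.344 and 0.544 CPM in siNTRK2_Sen. The monocyte attractant CCL2 was lowered by both, with -0.62 ± 0.08 and -0.50 ± 0.08 (adjusted p from edgeR = 3.60e-06 and 6.76e-05).

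**Figure D2:**
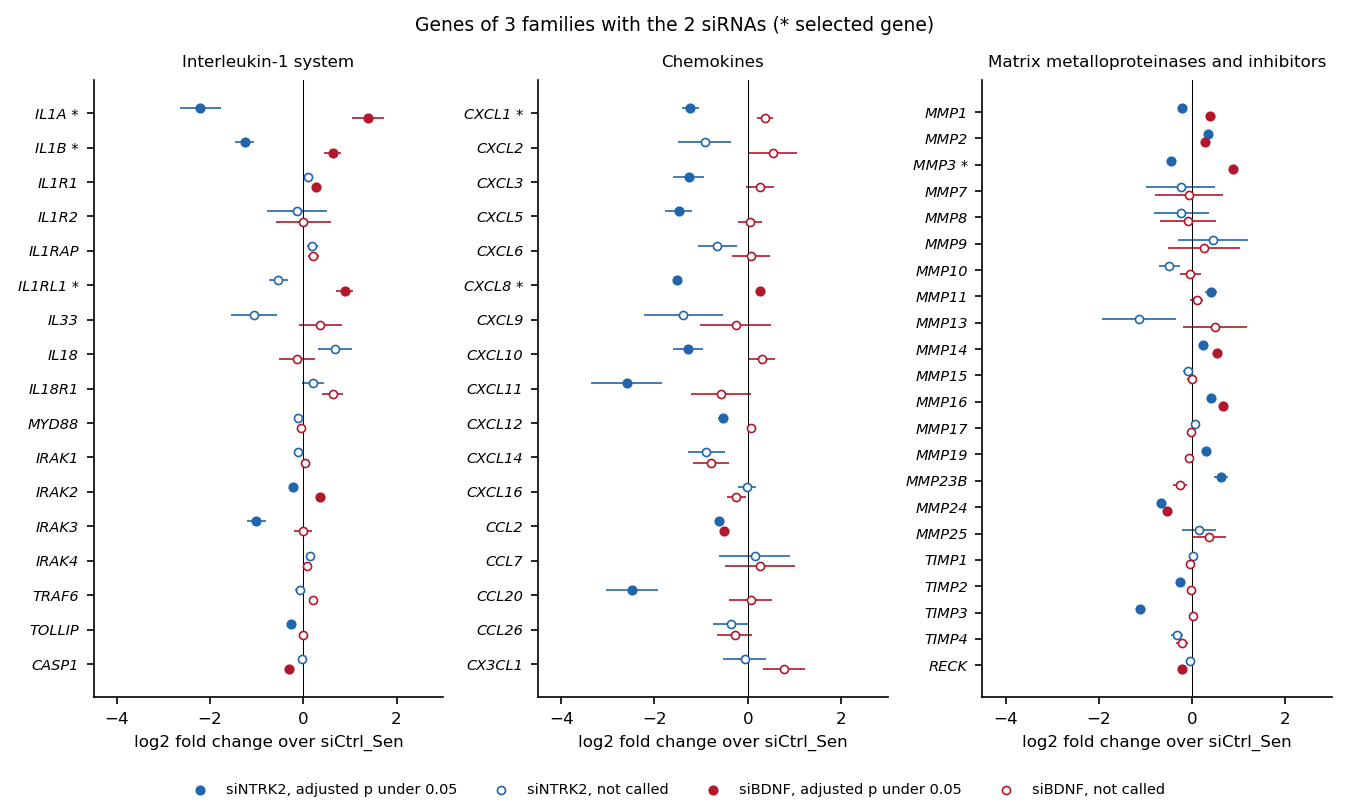
Log2 fold change over siCtrl_Sen (edgeR, bars are SE) with siNTRK2 (blue) and siBDNF (red) for the tested genes of 3 families; filled points have an adjusted p under 0.05 and an asterisk marks the selected genes. Most chemokine points lie left of 0 with siNTRK2 and near 0 with siBDNF, while IL1A, IL1B and MMP3 lie on either side, which for selected genes follows from the selection.

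Proteases and their inhibitors were a further group. MMP3, the matrix metalloproteinase stromelysin-1, was at 4.86, 4.30 and 4.56 CPM in the proliferating libraries and 26.6, 29.2 and 27.1 CPM in siCtrl_Sen. In siNTRK2_Sen MMP3 was at 20.3, 20.4 and 20.4 CPM and in siBDNF_Sen at 53.7, 53.3 and 51.04 CPM. No groups overlapped, and the ratio was 0.93 with siBDNF and -0.44 with siNTRK2. MMP3 rose with senescence by a log2 fold change of 2.56 ± 0.07 (SE) (adjusted p from edgeR = 3.80e-20). Among 22 tested metalloproteinases and inhibitors, siNTRK2 raised 6 and lowered 5 and siBDNF raised 5 and lowered 2. The collagenase MMP1, which lies beside MMP3 in the same cluster, was at -0.22 ± 0.04 after siNTRK2 and 0.39 ± 0.04 after siBDNF (log2 fold change, SE; adjusted p from edgeR = 6.21e-04 and 4.75e-07) and missed the limit on the ratio. MMP14 and MMP16, which encode membrane-bound members, were raised by both siRNAs, and TIMP3, an inhibitor, was lowered by siNTRK2 (-1.11 ± 0.04, adjusted p from edgeR = 2.08e-15) and at 0.01 ± 0.04 with siBDNF (adjusted p = 0.924). SERPINB2, the plasminogen activator inhibitor PAI-2, was at 54.3, 50.6 and 54.1 CPM in siCtrl_Sen, 38.4, 40.7 and 34.04 CPM in siNTRK2_Sen and 73.6, 78.4 and 76.6 CPM in siBDNF_Sen, with near-equal ratios of -0.49 and 0.52. TFPI2, an inhibitor of plasmin and other serine proteases, was at 181, 184 and 176 CPM in siCtrl_Sen, 148, 152 and 147 CPM in siNTRK2_Sen and 376, 365 and 370.3 CPM in siBDNF_Sen. It was named after its values were seen, as its ratio was 1.04 with siBDNF and -0.28 with siNTRK2, just past the limit.

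Of 39 tested cytokines and growth factors of the secretome, siNTRK2 raised 8 and lowered 12 and siBDNF raised 16 and lowered 5, and SERPINB2 was the only one selected. IL6, known as a central SASP cytokine, was not higher in senescent cells here. Its level was 8.26, 7.49 and 7.37 CPM in the proliferating libraries and 6.68, 6.79 and 6.51 CPM in siCtrl_Sen. IL6 was at -0.29 ± 0.10 after siNTRK2 (log2 fold change, SE; adjusted p from edgeR = 0.0401) and 0.01 ± 0.10 with siBDNF (adjusted p = 0.967). By RT-qPCR the paper reports that IL6 mRNA declined with either siRNA, which was not seen with siBDNF in these counts. LIF, an IL-6 family cytokine, had -0.19 ± 0.06 and 0.23 ± 0.06 (adjusted p from edgeR = 0.025 and 0.00566), and GDF15, a stress-induced cytokine, -0.62 ± 0.05 and 0.03 ± 0.05 (adjusted p = 4.79e-09 and 0.784). LIF passed with both siRNAs in opposite directions, and IL6 and GDF15 passed with siNTRK2 alone; the difference between genes was not tested.

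Among regulators and targets of NF-kB, siNTRK2 lowered 12 of 24 tested genes and raised 0, and siBDNF raised 8 and lowered 2, with medians of -0.24 and 0.01. C3, the central component of complement, was at 0.405, 0.429 and 0.515 CPM in the proliferating libraries and 11.1, 13.3 and 10.04 CPM in siCtrl_Sen. The siNTRK2_Sen libraries held 7.18, 6.96 and 7.10 CPM of C3 and those of siBDNF_Sen 29.8, 30.4 and 27.98 CPM. It had the largest rise with senescence of all 122 genes, 4.66 ± 0.14 (SE) on the log2 scale (adjusted p from edgeR = 2.46e-19), and ratios of -0.70 and 1.35 with the siRNAs. PTGS2, which encodes cyclooxygenase-2, the inducible enzyme of prostaglandin synthesis, was at 1.06, 1.35 and 1.13 CPM in the proliferating libraries and 3.60, 3.75 and 3.58 CPM in siCtrl_Sen. With siNTRK2 the PTGS2 level was 1.77, 1.23 and 2.25 CPM and with siBDNF 6.18, 4.80 and 5.02 CPM. Its siNTRK2 libraries approached the proliferating ones, and 1 of them lay within their range. NFKBIA, the inhibitor induced by NF-kB itself, was at -0.26 ± 0.05 after siNTRK2 and 0.25 ± 0.05 after siBDNF (log2 fold change, SE; adjusted p from edgeR = 8.20e-04 and 0.00115), and IER3, an early response gene, -0.25 ± 0.06 and 0.35 ± 0.05 (adjusted p = 0.00164 and 4.93e-05). ICAM1, an adhesion molecule, was lowered by siNTRK2 (-0.93 ± 0.05, adjusted p from edgeR = 9.73e-13) and at -0.01 ± 0.05 with siBDNF (adjusted p = 0.954).

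The paper reports that phosphorylation of ERK5 fell with either siRNA, and outputs of ERK5 were not listed separately here. TrkB signals through ERK, so outputs of ERK and subunits of AP-1 were described as a list of 31 tested genes. Of these, siNTRK2 raised 2 and lowered 9, and siBDNF raised 14 and lowered 1, with medians of -0.13 and 0.20. JUNB, a subunit of AP-1, was at 43.2, 40.98 and 40.3 CPM in siCtrl_Sen, 37.8, 26.3 and 33.8 CPM in siNTRK2_Sen and 52.6, 51.7 and 54.6 CPM in siBDNF_Sen, with ratios of -0.35 and 0.35, and its siNTRK2 libraries were spread more widely than those of the other groups. EGR3, an immediate early transcription factor, was low, at 0.896, 1.13 and 0.887 CPM in siCtrl_Sen, 0.779, 0.648 and 0.432 CPM in siNTRK2_Sen and 1.71, 1.18 and 1.41 CPM in siBDNF_Sen. SPRY4, an inhibitor of this pathway, was at 0.51 ± 0.06 with siBDNF and -0.14 ± 0.06 with siNTRK2 (log2 fold change, SE; adjusted p from edgeR = 2.68e-07 and 0.0726), and the ERK phosphatase DUSP4 at 0.85 ± 0.16 and 0.10 ± 0.17 (adjusted p = 4.17e-04 and 0.715). NRAS, a GTPase upstream of ERK, was at 124, 122 and 107 CPM in the proliferating libraries and 46.7, 47.2 and 47.7 CPM in siCtrl_Sen. In siNTRK2_Sen NRAS was at 38.3, 39.6 and 38.1 CPM and in siBDNF_Sen at 64.7, 61.4 and 65.2 CPM. It was named after its values were seen, because it fell with senescence, by 1.36 on the log2 scale (SE 0.05, adjusted p from edgeR = 4.66e-17), although its siBDNF libraries lay above and its siNTRK2 libraries below siCtrl_Sen.

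**Figure D3:**
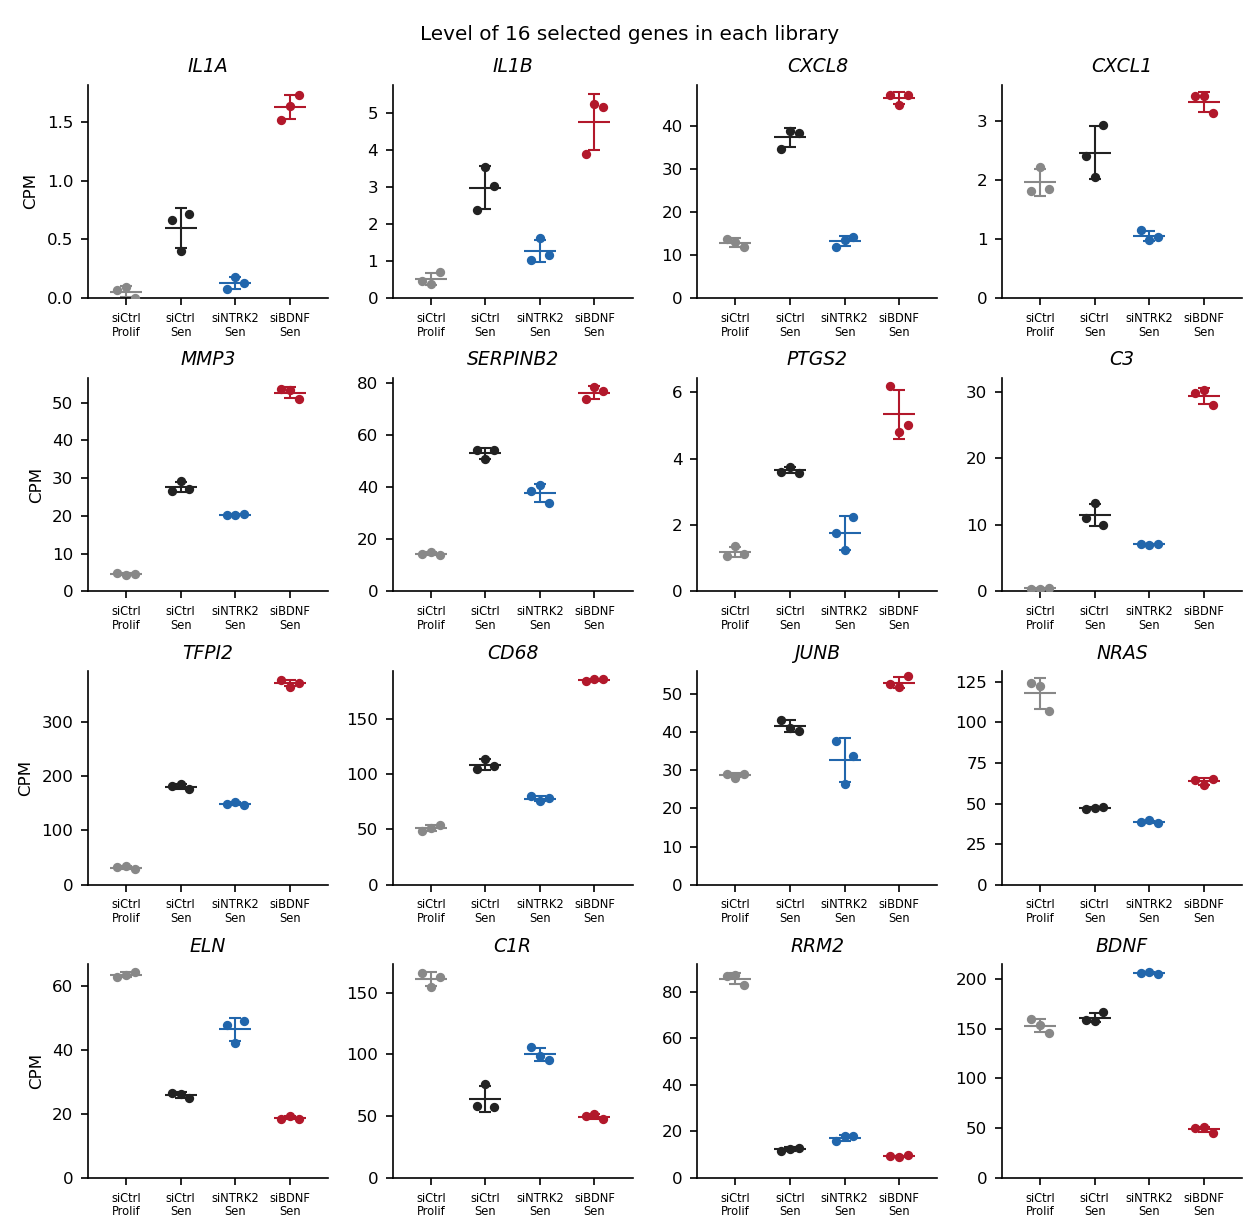
CPM of 16 selected genes in each library; points are libraries, the horizontal bar is the mean and the whiskers are the SD of 3 libraries. In IL1A, CXCL8 and PTGS2 the siNTRK2 libraries are near the proliferating ones, in C3, MMP3 and TFPI2 the siBDNF step is the larger, and in the last row the order of the 2 siRNAs is reversed.

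The remaining genes with the largest opposite ratios in the class lower with siNTRK2 came from several functions. LINC00520, a long noncoding RNA, had ratios of -0.84 and 0.98, and MPZL3, a membrane protein of the myelin protein zero-like family, -1.05 and 0.95, both at under 1 CPM in siCtrl_Sen. EHF, an ETS transcription factor of epithelial cells, was at 1.05, 1.65 and 1.19 CPM in siCtrl_Sen, 0.244, 0.425 and 0.451 CPM in siNTRK2_Sen and 2.12, 2.13 and 2.10 CPM in siBDNF_Sen. DGAT2, the enzyme of the last step of triglyceride synthesis, was at 9.49, 9.10 and 8.56 CPM in siCtrl_Sen, 5.75, 5.46 and 5.97 CPM in siNTRK2_Sen and 13.6, 14.1 and 12.8 CPM in siBDNF_Sen, with ratios of -0.66 and 0.58. ST8SIA5, a sialyltransferase of gangliosides, had -0.66 and 0.62, the potassium channel gene KCND2 -1.06 and 0.57, and TAGLN3, a transgelin of neurons, -0.51 and 0.59. Among the 15 with the largest opposite ratios, MPZL3, ST8SIA5, EGR3 and EVI2B passed with neither siRNA (edgeR, adjusted p 0.0743 to 0.227). EHF and KCND2 did not pass with siBDNF (edgeR, adjusted p = 0.121 and 0.232), nor LINC00520 and IL1RL1 with siNTRK2 (0.0677 and 0.0571). The metallothionein MT1X, which binds zinc and copper, was at 6.94, 6.73 and 8.03 CPM in siCtrl_Sen, 4.87, 5.65 and 4.88 CPM in siNTRK2_Sen and 10.3, 10.8 and 10.8 CPM in siBDNF_Sen. DNAJB9, a co-chaperone of the endoplasmic reticulum, was at 34.2, 34.5 and 35.9 CPM in siCtrl_Sen, 26.2, 28.7 and 28.4 CPM in siNTRK2_Sen and 45.4, 42.01 and 48.1 CPM in siBDNF_Sen and was the only 1 of 23 tested genes of the unfolded protein and integrated stress response to be selected, where siNTRK2 raised 4 and lowered 9 and siBDNF raised 5 and lowered 6.

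Further genes of this class were named after their values were seen. CPA4, a carboxypeptidase, was at 198, 187 and 198 CPM in siCtrl_Sen, 137, 128 and 134 CPM in siNTRK2_Sen and 247, 244 and 243 CPM in siBDNF_Sen, and TMEM158, a membrane protein induced by RAS, at 147, 136 and 147 CPM in siCtrl_Sen, 103, 93.6 and 99.1 CPM in siNTRK2_Sen and 180.0, 173 and 184 CPM in siBDNF_Sen. ARRDC4, an arrestin-like regulator of glucose uptake, was at 60.4, 61.9 and 60.00 CPM in siCtrl_Sen, 35.5, 35.5 and 36.3 CPM in siNTRK2_Sen and 79.1, 71.9 and 74.9 CPM in siBDNF_Sen, with the larger step for siNTRK2 (-0.77 against 0.31). NPTX1, a secreted pentraxin of neurons, was at 79.4, 76.2 and 76.7 CPM in the proliferating libraries and 92.4, 99.8 and 87.8 CPM in siCtrl_Sen. The siNTRK2_Sen libraries held 76.5, 64.8 and 72.3 CPM of NPTX1 and those of siBDNF_Sen 186, 187 and 186 CPM; the siBDNF libraries were set apart from all others, while the siNTRK2 libraries overlapped proliferating cells. CDCP1, a substrate of SRC kinases at the cell surface, had ratios of -0.44 and 0.91. HMOX1, the haem oxygenase of the oxidative stress response, had -0.28 and 0.28, close to the limit, and was not selected with TMM scaling.

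CD68, a lysosomal glycoprotein often used as a macrophage marker, was at 104, 114 and 108 CPM in siCtrl_Sen, 79.8, 76.1 and 77.99 CPM in siNTRK2_Sen and 184, 186 and 186 CPM in siBDNF_Sen. The defining leukocyte marker PTPRC was at 0 counts in proliferating cells and 30 to 71 counts in the senescent libraries (0.563 to 1.09 CPM). By group PTPRC was 0.798 to 1.05 CPM in siCtrl_Sen, 0.563 to 0.911 CPM in siNTRK2_Sen and 0.998 to 1.09 CPM in siBDNF_Sen. The monocyte marker CD14 was at 0.152 to 0.211 CPM in proliferating cells. CD14 was 0.256 to 0.712 CPM in siCtrl_Sen, 0.283 to 0.357 CPM in siNTRK2_Sen and 0.659 to 0.760 CPM in siBDNF_Sen. CD3E and MS4A1 did not exceed 12 counts in any library. Summed over the 5 leukocyte markers fixed for this check, levels were 106 to 115 CPM in siCtrl_Sen, 77.2 to 80.8 CPM in siNTRK2_Sen and 187 to 188 CPM in siBDNF_Sen, nearly all of it CD68, and 1 of the 5 was selected. EVI2B, a membrane protein of blood cells whose gene lies in an intron of NF1 on the other strand, was at 1.11, 1.18 and 0.921 CPM in siCtrl_Sen, 0.795, 0.607 and 0.807 CPM in siNTRK2_Sen and 1.58, 1.35 and 1.74 CPM in siBDNF_Sen, and reads of the intron cannot be told apart from its own without strand. Epithelial markers summed to 46.8 to 56.7 CPM in siCtrl_Sen, 38.6 to 44.03 CPM in siNTRK2_Sen and 49.8 to 52.3 CPM in siBDNF_Sen, mostly KRT19, with EPCAM and CDH1 under 1 CPM throughout.

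The class higher with siNTRK2 and lower with siBDNF held BDNF, for which the fall with siBDNF is that of the silenced target itself. BDNF fell with siBDNF by a log2 ratio of 1.73 and was higher in siNTRK2_Sen (0.35), and its 3 siNTRK2 libraries, between 205.1 and 207 CPM, lay above all siCtrl libraries of both states. The antisense RNA BDNF-AS, like C1S, CDCA5 and PLTP below named after its values were seen, overlaps BDNF on the other strand and moved with it, with ratios of 0.31 and -1.81. Its counts were 0.217 to 0.284 of those of BDNF in all 12 libraries, and since the strand setting of the counting was not stated, reads of these genes cannot be told apart. Among 11 tested neurotrophins and receptors, siNTRK2 raised 2, BDNF and SORCS2, and lowered 1, NTRK2, and siBDNF raised 1, GDNF, and lowered 3, BDNF, NTF3 and SORT1, a receptor of neurotrophin precursors.

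This class also held genes of the matrix and of complement. ELN, which encodes elastin, was at 62.9, 63.2 and 64.4 CPM in the proliferating libraries and 26.7, 26.1 and 24.9 CPM in siCtrl_Sen. With siNTRK2 the ELN level was 47.8, 42.3 and 49.1 CPM and with siBDNF 18.4, 19.3 and 18.5 CPM. Its siNTRK2 libraries lay between senescent and proliferating siCtrl cells, and its siBDNF libraries lay lowest, with ratios of 0.84 and -0.47. Of 21 tested genes of the fibrillar matrix, siNTRK2 raised 18 and lowered 0 (median 0.52) and siBDNF raised 10 and lowered 4 (median 0.10). In edgeR 2 of the 21, ELN among them, passed higher with siNTRK2 and lower with siBDNF, and ELN was the only one selected. C1R, a serine protease that starts the classical complement pathway, was at 166, 155 and 163 CPM in the proliferating libraries and 57.9, 76.4 and 57.7 CPM in siCtrl_Sen. In siNTRK2_Sen C1R was at 106, 98.3 and 95.9 CPM and in siBDNF_Sen at 49.7, 51.6 and 47.3 CPM. The second siCtrl_Sen library stood above the other 2, yet below every siNTRK2 library. C1S, its substrate and partner, lies beside it on chromosome 12 and was at 155, 185 and 161 CPM in siCtrl_Sen, 202, 218 and 199.8 CPM in siNTRK2_Sen and 124, 130.1 and 120.4 CPM in siBDNF_Sen. COL15A1, a basement membrane collagen, had ratios of 0.35 and -0.58, and ADAMTS8, a secreted metalloproteinase, 0.62 and -0.76. The complement component C3 was in the opposite class.

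Some genes of this class are tied to division. RRM2, the subunit of ribonucleotide reductase that limits DNA synthesis, was at 86.8, 87.3 and 83.2 CPM in the proliferating libraries and 11.6, 12.5 and 13.1 CPM in siCtrl_Sen. The siNTRK2_Sen libraries held 15.8, 17.95 and 18.2 CPM of RRM2 and those of siBDNF_Sen 9.22, 9.16 and 9.67 CPM. Senescent cells had far less than proliferating cells in every group, and within them the order was siNTRK2, siCtrl, siBDNF, without overlap. CDCA5, or sororin, which holds sister chromatids together, was at 5.01, 5.43 and 4.64 CPM in siCtrl_Sen, 6.53, 6.94 and 6.89 CPM in siNTRK2_Sen and 3.58, 4.16 and 4.45 CPM in siBDNF_Sen. RRM2 was the only 1 of 30 tested cell cycle genes to be selected, of which siNTRK2 raised 18 and lowered 3 and siBDNF raised 4 and lowered 2. MKI67, which is among them, was raised by both siRNAs.

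The interferon-induced GTPase GBP1 was at 23.2, 24.5 and 21.99 CPM in siCtrl_Sen, 35.5, 42.6 and 39.8 CPM in siNTRK2_Sen and 19.5, 17.9 and 17.96 CPM in siBDNF_Sen. Of 28 tested interferon-stimulated genes, siNTRK2 raised 1, GBP1, and lowered 12, and siBDNF raised 0 and lowered 8. CARD16, a decoy of caspase-1, had ratios of 0.37 and -0.34. CYTL1, a secreted cytokine-like protein, was low, at 2.11, 1.79 and 2.56 CPM in siCtrl_Sen, 2.95, 4.19 and 2.99 CPM in siNTRK2_Sen and 1.14, 1.27 and 1.27 CPM in siBDNF_Sen, and both of its ratios were over 0.5 in absolute value. Among secreted factors, KISS1, the precursor of kisspeptins, had 0.33 and -0.66, and AGT, the precursor of angiotensin, 0.57 and -0.33. ANKRD52, a subunit of protein phosphatase 6, was at 121, 128 and 115 CPM in siCtrl_Sen, 159, 153 and 153 CPM in siNTRK2_Sen and 84.01, 85.7 and 80.99 CPM in siBDNF_Sen. The membrane protein gene TMEM130 had 0.50 and -0.49, the sulphotransferase SULT1A1 0.39 and -0.58, and RBPMS2, an RNA-binding protein, 0.32 and -0.52, the last not selected with TMM scaling. APOE, the lipid carrier, was named after its values were seen and was at 9.94, 10.2 and 10.3 CPM in siCtrl_Sen, 20.8, 17.3 and 19.2 CPM in siNTRK2_Sen and 8.08, 8.94 and 8.38 CPM in siBDNF_Sen, with the largest siNTRK2 ratio of the class (0.92). Of the tested p53 targets (24), contractile genes (19), genes of cholesterol and fatty acid synthesis (27) and of the mitochondrial genome (13), 0 were selected. In edgeR, 1 of these p53 targets passed lower with siNTRK2 and higher with siBDNF, and 3 of the contractile genes passed in the reverse directions.

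Whether these genes also separate senescent from proliferating cells was asked in the siCtrl groups, with a quasi-likelihood model in edgeR across all 21518 tested genes; the siCtrl_Sen libraries are shared with the selection. Of the 93 genes lower with siNTRK2, 75 (80.6%) were higher in senescent cells, 11 were lower and 7 did not pass an adjusted p of 0.05, while of all tested genes 29.8% were higher and 28.3% lower. Among genes at the CPM minimum these shares were 30.1% and 35.6%. The median log2 fold change of the class was 1.51, against 0.02 over all tested genes. Of the 29 genes higher with siNTRK2, 17 (58.6%) were lower in senescent cells, 9 were higher and 3 did not pass, and the median was -0.51. The CPM minimum was set in senescent cells only, which admits genes absent from proliferating cells. With members at a mean of 1 CPM or more in proliferating cells as well, 43 of 60 genes of the first class were higher in senescent cells and 11 lower, and 17 of 28 of the second class were lower and 8 higher, beside 27.5% higher and 37.7% lower among 14980 genes of that kind. With a fold change over 1 on the log2 scale as a further requirement, 60 of the first class were higher and 2, COLEC12 and NRAS, lower, and 11 of the second class were lower and 3 higher, while 11.6% of all tested genes were higher and 5.16% lower at that threshold.

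**Figure D4:**
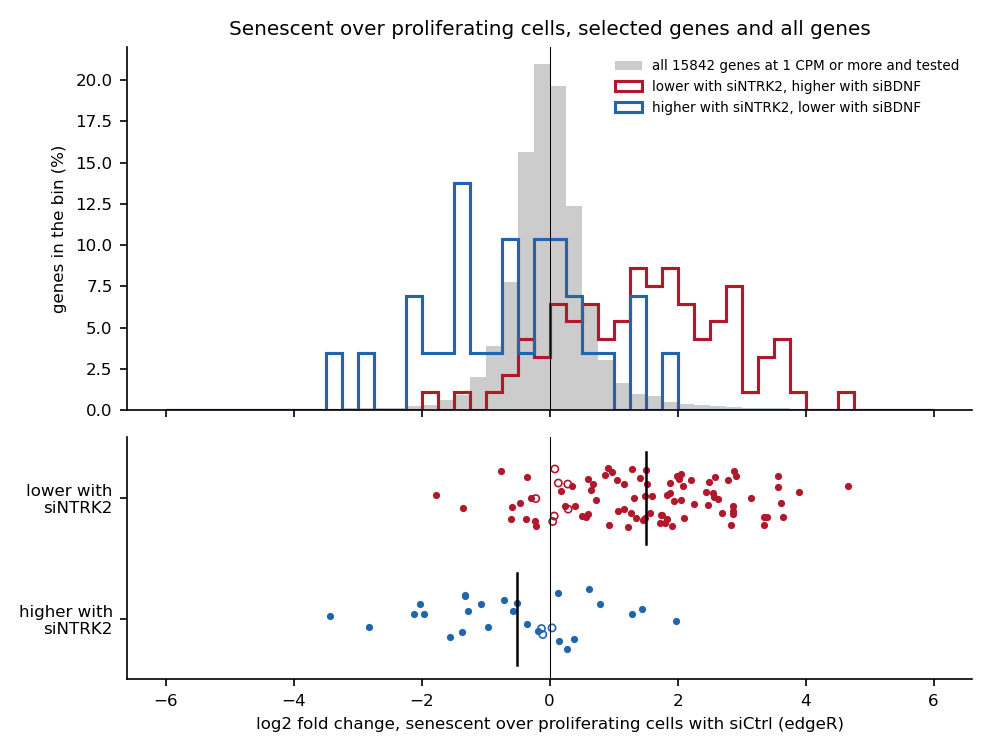
Log2 fold change of senescent over proliferating siCtrl cells (edgeR): above, the share of genes per bin for both classes and for the 15842 genes at the CPM minimum; below, each selected gene, open where the adjusted p was 0.05 or more, with a black bar at the class median. The median is 1.51 for the 93 genes lower with siNTRK2 and -0.51 for the 29 genes higher with siNTRK2.

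Within the first class the fold changes that passed ran from -1.77 for COLEC12, a scavenger receptor, to 4.66 for C3. The genes that fell in senescent cells were COLEC12, NRAS, RAB8B, PEG10, ELOVL4, CBFB, ENSG00000253851, SPSB1, MT1E, HMOX1 and EOGT, and those that did not pass included CXCL1, EGR3, NEFH, CTSS, TMEM30A and LINC00511, most of them named after these values were seen. For CXCL1 the fold change was 0.28 ± 0.17 (SE), with an adjusted p from edgeR of 0.156. In the second class the values that passed ran from -3.44, for ENSG00000268310, which has no symbol in the table of names and was named for this value, to 1.97 for AGT. RRM2 fell by 2.83 (SE 0.07), COL15A1 by 2.12 (SE 0.09) and ELN by 1.33 (SE 0.06) on the log2 scale (adjusted p from edgeR = 1.94e-21, 3.94e-16 and 7.56e-16). KISS1 rose by 1.44 ± 0.14 (SE), APOE by 1.28 ± 0.09 (SE) and PLTP, which like APOE carries lipids, by 0.78 ± 0.05 (SE) (adjusted p from edgeR = 3.83e-09, 9.75e-12 and 2.94e-13). BDNF did not pass, at 0.04 ± 0.05 (SE) and an adjusted p of 0.508 from edgeR. Proliferating siCtrl cells had 153 ± 6.77 CPM and senescent ones 161 ± 4.77 CPM (SD, n = 3).

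The senescent groups were also set beside the proliferating libraries. In the first class all 3 proliferating libraries lay below siCtrl_Sen for 76 genes, below siNTRK2_Sen for 59 and below siBDNF_Sen for 83, beside 34.3%, 34.5% and 40.5% of the 15842 genes at the CPM minimum. In the second class they lay above siCtrl_Sen for 17 of 29 genes, above siNTRK2_Sen for 15 and above siBDNF_Sen for 23, beside 32.9%, 29.3% and 31.3%. The order of these counts among the 3 senescent groups follows from the selection, and nothing is read from it. In the edgeR model, 65 of the 93 genes passed in the direction of the selection with siNTRK2 and 57 with siBDNF. Of the 29 genes, 24 and 26 did so. With both siRNAs, 53 of the 93 and 21 of the 29 passed. These counts follow from the selection and are no support for it.

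**Figure D5:**
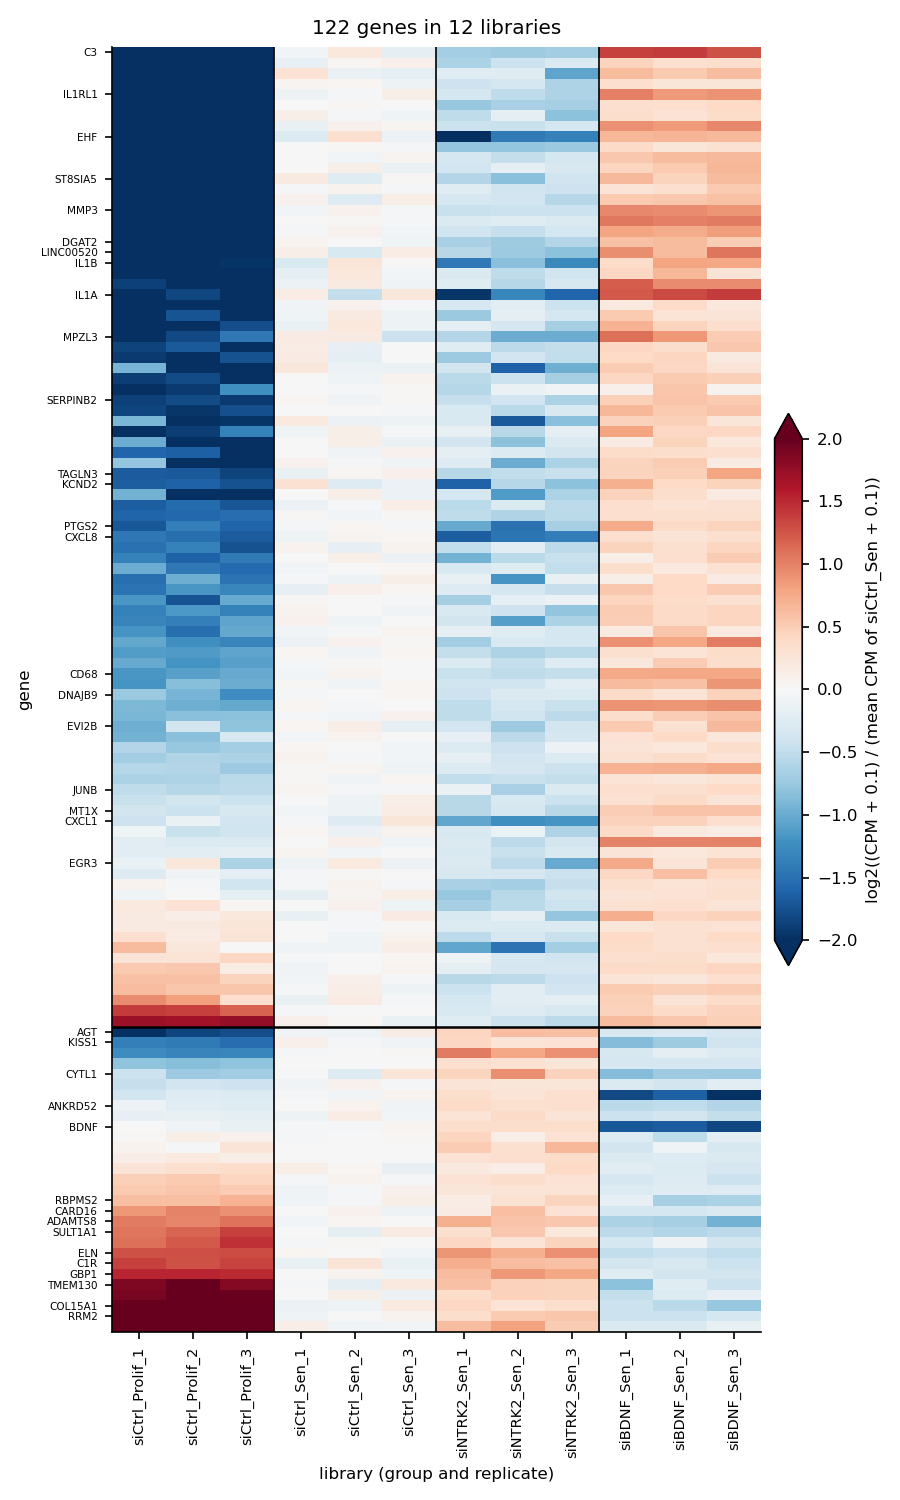
Level of the 122 genes in the 12 libraries as log2 of CPM plus 0.1 over the mean of siCtrl_Sen plus 0.1 (colours end at -2 and 2), with the 93 genes lower with siNTRK2 above the line and the 29 higher with it below, sorted by the proliferating libraries; names are given for genes of the fixed lists and the 15 with the largest smaller ratio per class. Proliferating libraries are mostly blue above and red below the line, and siNTRK2_Sen and siBDNF_Sen have opposite colours in every row.

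Several selected genes are neighbours in the genome (hg19), and those in this paragraph that no list holds were named for their position. IL1A and IL1B lie 45.3 kb apart on chromosome 2, at chr2:113531502-113542070 and chr2:113587328-113594393, and CXCL8 (chr4:74606236-74609433) and CXCL1 (chr4:74735110-74737025) 125.7 kb apart on chromosome 4, in both cases with no other gene at the CPM minimum between them. C1R and C1S are 9.18 kb apart, and MT1X and MT1E 55.4 kb. SERPINB2 and SERPINB10 are 4.07 kb apart on chromosome 18, and the SERPINB10 count was 0.445 to 0.514 of that of SERPINB2 in every library. The choriogonadotropin genes CGB1, CGB3 and CGB8 and ENSG00000267335, which overlaps 2 of them, share near-identical sequence, as the MT1 genes do in part, so their reads may be split between copies and their counts are uncertain. TMEM158 and CYP1B1 likewise overlap another selected transcript each, AC010170.1 and CYP1B1-AS1. In all, 32 of the 122 genes overlap an expressed gene on the other strand and 16 one on the same strand.

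By annotation 106 of the 122 genes were protein-coding, 10 were long noncoding RNAs, 2 pseudogenes and 4 had no entry. The noncoding members included MIR31HG (-0.28 and 0.35), the RNA of the locus of the microRNA miR-31, and LINC-PINT (-0.33 and 0.27), a p53-induced RNA, both lower with siNTRK2 and both named after their values were seen. Median GC content of the longest transcript of each gene was 47.3% in the class lower with siNTRK2, 55.2% in the reverse class and 48.2% among the 15842 genes at the CPM minimum. Median exon length was 4020, 5097 and 4733 bases, respectively. Both cover the 118 selected genes with an annotation. With a trend in GC content and length removed from each library, a setting added after the data were seen, 87 and 25 genes met the rule, of which 90 were among the 122.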

How the data were processed

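Poly(A) RNA of WI-38 cells was sequenced in paired-end, stranded TruSeq libraries. The deposited counts are whole numbers of reads per Ensembl gene, which the authors made without normalization, 1 file per library; the submitters' processing notes name bcl2fastq 2.20.0.422, Cutadapt, STAR 2.4.0j, hg19 and featureCounts 1.6.4. Whether reads were counted by strand is not given in the sources used here. Names matched 55538 of 57773 identifiers.

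The selection used CPM from column totals. Counts were tested in R 4.3.3 with edgeR 4.0.16 (TMM, filterByExpr, quasi-likelihood test, 1 term per group over all 12 libraries, Benjamini-Hochberg adjustment, threshold 0.05); DESeq2 1.42.0, other scalings, filters, limits and fits, a replicate block and leaving out single libraries were alternatives. SE is the absolute log2 fold change over the square root of F. Fold changes in the text are edgeR's, while ratios are of mean CPM. The steps were tested on simulated data. Genes named in the text were IL1A, MMP3, BDNF, NTRK2, in each class the 15 with the largest smaller ratio, members of fixed gene lists, and those nearest the limit; all other genes were named after their values or positions were seen. The genes and lists were chosen with earlier results of these data known. Promoters are from RefSeq (GRCh38.p14), matched by symbol.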

Additional observations from a re-analysis of the deposited data

How the results depend on the processing

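The counts of selected genes kept within 1.5 times under the other scalings, CPM minimums of 0.5 and 2 and the removal of the GC and length trend. With a limit of 0.5 on both ratios they fell to 14 and 2, and with no limit they were 393 and 173. Leaving out 1 senescent library at a time gave 100 to 126 genes lower and 31 to 45 higher with siNTRK2; the 45, without siCtrl_Sen replicate 3, was over 1.5 times the 29. In senescence, leaving out 1 library gave 73 to 75 and 10 to 11 genes of the first class higher and lower, and 7 to 9 and 17 to 17 of the second. Only the fold change limit of 1 and the CPM minimum in proliferating cells, the latter added after the data were seen like the GC and length trend, moved these counts by over 1.5 times: to 2 lower in the first class, 3 higher and 11 lower in the second, and 43 higher in the first class. Calls in the direction of the selection, 89 with siNTRK2 and 83 with siBDNF, dropped to 8 and 5 with that fold limit and were 76 to 88 and 63 to 72 without 1 library. For senescent over proliferating siCtrl cells, BDNF turned from 0.04 to -0.0036 on the log2 scale without siCtrl_Sen replicate 3, without passing in either case. It was -0.0036 to 0.0481 without 1 library at a time. In the same comparison IL1A and MMP3 kept direction and call in every alternative in which they were tested. The siRNA fold changes of single genes were not followed through these alternatives. At least 10 counts in every library left IL1A untested.

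No pairing by replicate number was seen. Deviations from the group means correlated by 0.0069 on average between same-numbered libraries of different groups (-0.064 to 0.072) and by -0.0035 between others. The paper states that the groups of an in vitro experiment were handled together. The numbers need not follow those experiments, so these values cannot exclude a pairing. With the replicate block, the counts were 75, 11, 9 and 17 in senescence, and 91 and 78 for the siRNAs, and no count moved by over 1.5 times.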
